A study of Homo sapiens with 15 samples.

Results

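TMPRSS2, ERG, ETS2, ETV1, ETV4, ETV5, ELF3 and EHF were followed through 5 sublines of VCaP, a prostate cancer cell line that carries the TMPRSS2-ERG gene fusion. These 8 genes were taken from a named list, the fusion's partners and a set of ETS factors, and matched by gene identifier among 58381 annotated genes. Of the 8 genes, 6 passed the filter on low counts, as did 19621 genes in all, and ETV1 and ETV5 did not. Bulk RNA of 3 libraries per subline, labelled as biological replicates by the study, gave 33665716 to 46935279 fragments counted in genes per library. VCaP-T had been cultured for months in charcoal-stripped serum (DCC-FBS) with 10 nM testosterone and is labelled androgen sensitive, and the 4 later sublines are labelled resistant. VCaP-CT was derived from VCaP-T in low testosterone, given as 0.1 nM for 10 months in the protocol, whereas the sample labels give 10 nM for that period. VCaP-CT-ER was derived from VCaP-CT under 10 µM enzalutamide (ENZ), an antiandrogen drug (called an antagonist below), until growth returned. VCaP-CT-BR was derived from VCaP-CT under bicalutamide, an older antiandrogen, and its label adds ENZ once bicalutamide had lost its effect. VCaP-CT-BR-ER was the line that then grew under ENZ. Each subline is 1 derivation, so that treatment, time in culture and selection of a clone cannot be told apart. The p-values of the gene tests below measure only the spread between libraries of a subline, and no p-value measures a spread between derivations.

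ETS factors share a DNA-binding domain that reads GGAA, and they act as activators or repressors in epithelium, endothelium and blood. TMPRSS2 encodes a transmembrane serine protease of luminal prostate cells whose promoter is induced by androgen. In the fusion, this promoter and the first TMPRSS2 exons are joined to ERG, an ETS factor otherwise used by endothelium, so that ERG is made in prostate epithelium under androgen control. ETV1, ETV4 and ETV5 form the PEA3 group, which can also be fused to TMPRSS2, whereas ELF3 and EHF are ETS factors of normal epithelium and ETS2 is a broadly used member that responds to MAPK signaling.

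TMPRSS2 (ENSG00000184012.11, chr21:41464551-41531116, minus strand), ERG (ENSG00000157554.18, chr21:38380027-38661780, minus strand) and ETS2 (ENSG00000157557.11, chr21:38805307-38824955, plus strand) lie on one arm of chromosome 21 in GRCh38, with ETS2 between the fusion partners. The others are ELF3 (chr1:202007945-202017188, plus), EHF (chr11:34621093-34661057, plus), ETV4 (chr17:43527844-43579620, minus), ETV1 (chr7:13891228-13991425, minus) and ETV5 (chr3:186046308-186110318, minus). Fragments were counted over all exons of a gene, so that fused and intact transcripts of ERG or of TMPRSS2 cannot be told apart. ELF3 shared 1218 exon bases, 16.9% of its length, with other annotated genes, ELF3-AS1 among them, and its level is uncertain to that extent. The overlaps of ETV4 and ETV5 covered 1.89% and 2.83% of their exon bases.

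Promoter sequences were available in RefSeq (GRCh38.p14) for 5 of the 8 genes as 15 start windows, and TMPRSS2, ETV4 and ETV5 had no entry. The windows of 250 bases upstream of a start are shown for ERG, where they belong to the start that the fusion leaves behind, and for ETS2 and EHF as members from other ETS subfamilies. ERG had 4 windows, of which the one at the outermost start is printed, and ETS2 and EHF had 2 each, of which the one free of annotated exons is printed. The printed ERG window was free of annotated exons as well. Capitals mark GGAA or its complement TTCC.
ERG, chr21:38660668-38660917, minus strand: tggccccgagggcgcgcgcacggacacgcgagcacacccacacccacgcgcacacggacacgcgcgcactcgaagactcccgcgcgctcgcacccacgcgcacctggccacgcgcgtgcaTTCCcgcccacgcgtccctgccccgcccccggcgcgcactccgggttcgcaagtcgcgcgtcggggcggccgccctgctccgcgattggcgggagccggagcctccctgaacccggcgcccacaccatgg
ETS2, chr21:38804933-38805182, plus strand: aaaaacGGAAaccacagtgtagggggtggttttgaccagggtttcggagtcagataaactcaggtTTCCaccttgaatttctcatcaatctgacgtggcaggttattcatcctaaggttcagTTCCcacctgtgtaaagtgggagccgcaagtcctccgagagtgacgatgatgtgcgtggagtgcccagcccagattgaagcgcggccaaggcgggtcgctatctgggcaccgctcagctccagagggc
EHF, chr11:34624007-34624256, plus strand: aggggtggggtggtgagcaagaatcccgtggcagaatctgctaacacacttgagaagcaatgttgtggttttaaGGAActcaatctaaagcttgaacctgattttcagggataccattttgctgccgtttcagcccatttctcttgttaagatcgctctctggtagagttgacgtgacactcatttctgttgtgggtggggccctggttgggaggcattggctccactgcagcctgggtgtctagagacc
The ERG and EHF windows each held GGAA 1 time and the ETS2 window 3 times, counting both strands, against a median of 3 over 35116 windows of the same length, 92.7% of which held it. None of the 3 held the longer CCGGAA, present in 14.5% of all windows, or AGAACA, a steroid response half-site, present in 12.4%. The windows not printed held GGAA 4, 1 and 2 times for ERG, 6 times for ETS2 and 0 times for EHF. A match is a description of the letters only.

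TMPRSS2 fell from VCaP-T to VCaP-CT and stayed low. TMPRSS2 measured 645, 633 and 676 CPM (counts divided by the TMM-scaled library size) in the VCaP-T libraries and 134, 137 and 138 CPM in VCaP-CT. The VCaP-CT-ER libraries had 88.8, 89.3 and 87.3 CPM, those of VCaP-CT-BR 95.6, 100 and 94.5 CPM, and those of VCaP-CT-BR-ER 111, 97.0 and 98.3 CPM. Every VCaP-T library was above every VCaP-CT library, and these were above all 9 libraries of the antagonist-resistant sublines, whereas VCaP-CT-BR overlapped with VCaP-CT-BR-ER. The fall from VCaP-T to VCaP-CT was 4.77-fold (log2 fold change -2.25, SE 0.05, edgeR adjusted p = 5.66e-19). TMPRSS2 fell a further 1.54-fold in VCaP-CT-ER (adjusted p = 8.25e-10, edgeR) and 1.41-fold in VCaP-CT-BR (adjusted p = 5.98e-08, edgeR), both against VCaP-CT. At the ENZ step after bicalutamide (VCaP-CT-BR-ER against VCaP-CT-BR) the log2 difference was 0.08 with an SE of 0.05 and did not pass (edgeR adjusted p = 0.236). In bulk RNA, fewer cells with a transcript and less of it per cell cannot be told apart.

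ERG, the oncogenic partner, fell less than TMPRSS2 from VCaP-T to VCaP-CT, and the falls of both genes were closer in size at the antagonist steps. ERG measured 515, 537 and 542 CPM in VCaP-T, 416, 415 and 414 CPM in VCaP-CT and 272, 282 and 273 CPM in VCaP-CT-ER. It was 254, 245 and 244 CPM in VCaP-CT-BR and 278, 246 and 264 CPM in VCaP-CT-BR-ER. VCaP-T, VCaP-CT and the remaining sublines formed 3 levels without overlap, and within the lowest level VCaP-CT-BR-ER overlapped both of the others. ERG was 1.28-fold lower in VCaP-CT than in VCaP-T (log2 fold change -0.36, SE 0.05, edgeR adjusted p = 6.11e-07). It was 1.51-fold lower in VCaP-CT-ER (adjusted p = 3.87e-10, edgeR) and 1.67-fold lower in VCaP-CT-BR (adjusted p = 3.17e-11, edgeR) than in VCaP-CT. VCaP-CT-BR-ER differed from VCaP-CT-BR by 0.08 on the log2 scale (SE 0.05, edgeR adjusted p = 0.15), and without VCaP-CT-BR-ER replicate 2 this difference was 0.14 and passed (edgeR adjusted p = 0.0279). Against VCaP-T, ERG was 2.14-fold lower in VCaP-CT-BR, where TMPRSS2 was 6.73-fold lower.

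**Figure D1:**
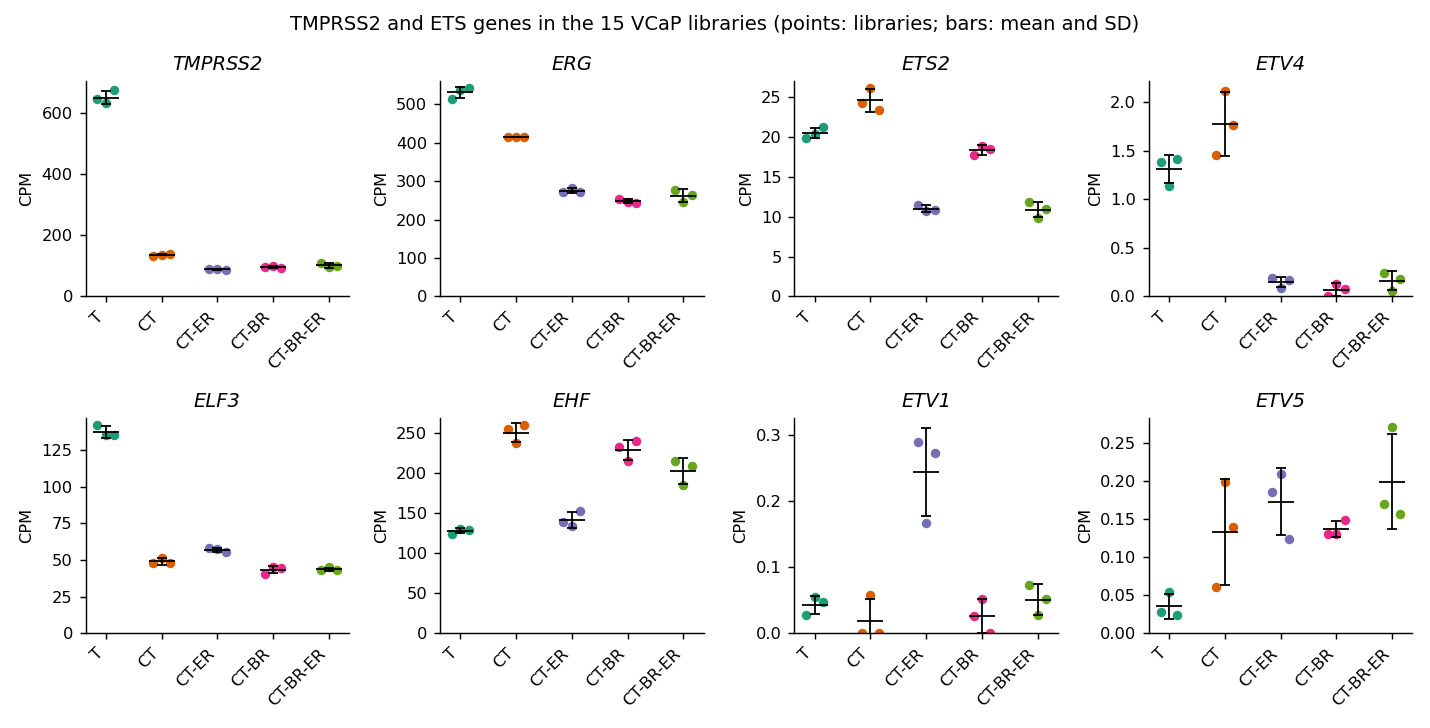
Levels in CPM (linear axis from 0) of the 8 genes in the 3 libraries of each subline, with each prefix VCaP left off; points are libraries and black bars the mean and SD. TMPRSS2 and ELF3 dropped at VCaP-CT, ERG dropped in steps from 531 to 248 CPM, and EHF was near its VCaP-T level in VCaP-CT-ER.

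The ratio of ERG to TMPRSS2 within a library does not depend on library scaling, and it changed most at the step to VCaP-CT. The log2 difference of their counts was -0.29 ± 0.05 in VCaP-T and 1.6 ± 0.02 in VCaP-CT (SD, n = 3 each). After antagonists it was 1.64 ± 0.02 for VCaP-CT-ER, 1.36 ± 0.06 for VCaP-CT-BR and 1.36 ± 0.05 for VCaP-CT-BR-ER (SD, n = 3 each). TMPRSS2 thus had more fragments than ERG in each VCaP-T library, and ERG had more in each of the 12 later libraries. The 12 later libraries exceeded VCaP-T by 1.78 (two-sided exact permutation p = 0.0022, the smallest that 455 splits can give, and 0.0044 after Benjamini-Hochberg adjustment over 2 tests). This test and the next shuffled single libraries, although the libraries of a subline share 1 derivation. Their p-values therefore do not hold with sublines as the units. The 9 antagonist-resistant libraries exceeded the 6 libraries of VCaP-T and VCaP-CT by 0.80 (two-sided exact permutation p = 0.0406 over 5005 splits, also 0.0406 adjusted), but this came from VCaP-T, since VCaP-CT lay among the resistant sublines, and p was 0.102 without VCaP-T replicate 1 or 3 and 0.101 without replicate 2. That p also rose to between 0.0503 and 0.0603 without any 1 of the 9 resistant libraries. Between single sublines, 3 libraries against 3 cannot give an exact p under 0.10. The ratio differed by 0.04 between VCaP-CT-ER and VCaP-CT (exact permutation p = 0.2) and by -0.25 between VCaP-CT-BR and VCaP-CT, groups that did not overlap (exact permutation p = 0.1). Per exon length, TMPRSS2 was at 106 ± 3.59 and ERG at 70.0 ± 1.90 RPKM (CPM per kilobase of exons) in VCaP-T, and at 22.3 ± 0.322 and 54.7 ± 0.104 RPKM in VCaP-CT (SD, n = 3 each).

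**Figure D2:**
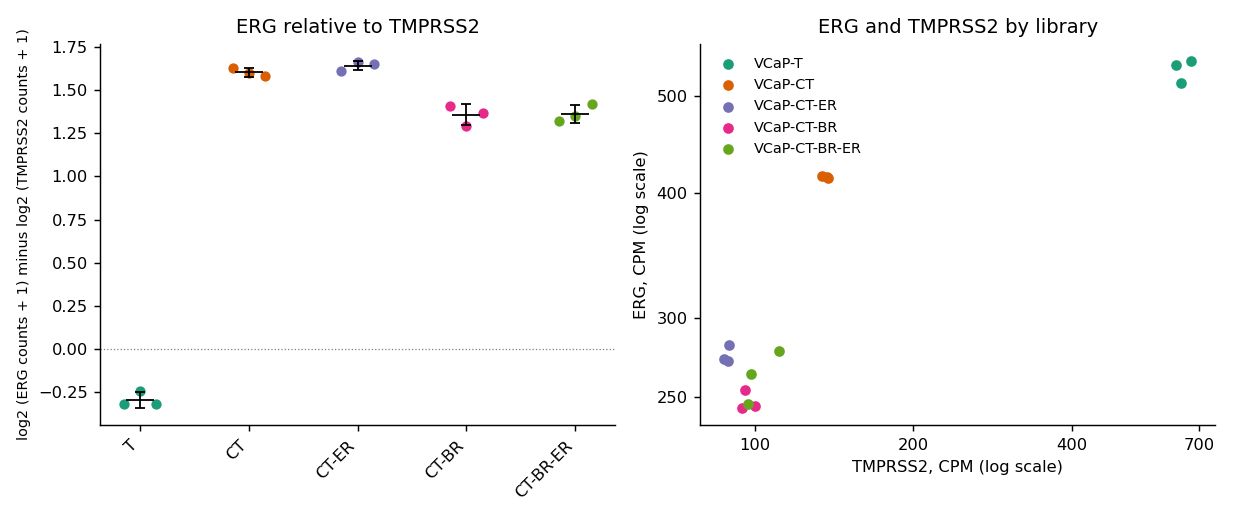
Left, log2 of ERG counts minus log2 of TMPRSS2 counts, each plus 1, in the 15 libraries, with mean and SD per subline; right, ERG against TMPRSS2 in CPM on log axes. The difference was below 0 in VCaP-T and between 1.36 and 1.64 on average in the later sublines.

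Other androgen-induced genes did not all move as TMPRSS2 did. KLK3, which encodes PSA and is a classical androgen-induced gene, fell 107-fold from VCaP-T to VCaP-CT (edgeR adjusted p = 1.3e-25) and rose 15.7-fold from there to VCaP-CT-ER (adjusted p = 1.95e-22, edgeR). FKBP5, a co-chaperone gene induced by androgen, went from 419 ± 13.9 to 123 ± 1.75 CPM and then to 250 ± 6.77 CPM in the same order (SD, n = 3 each). In VCaP-CT-ER, KLK3 and FKBP5 were therefore above VCaP-CT, whereas TMPRSS2 and ERG were below it. STEAP4, a metalloreductase gene of the same kind, had fallen 77.3-fold from VCaP-T to VCaP-CT (edgeR adjusted p = 4.84e-20). It went the other way in VCaP-CT-ER and was 17.7-fold lower than in VCaP-CT (edgeR adjusted p = 4.74e-10). That fold is uncertain in size, since STEAP4 held 54 to 67 fragments per library in VCaP-CT and 3 to 6 in VCaP-CT-ER.

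The 9 other genes known as 5′ partners of ETS fusions in prostate cancer were all tested. In VCaP-CT against VCaP-T, 8 fell and 1 rose (median log2 fold change -0.34), where 32.2% of all tested genes were called lower and 33.1% higher. HERPUD1, an endoplasmic reticulum stress gene, fell 2.45-fold (edgeR adjusted p = 4.38e-16) and NDRG1, a stress-response gene, 1.99-fold (adjusted p = 3.19e-14, edgeR). In VCaP-CT-ER against VCaP-CT, 5 rose and 1 fell (background 29.6% higher and 31.2% lower), and HERPUD1 and NDRG1 rose 1.99-fold and 1.98-fold (edgeR adjusted p = 4.3e-14 and 4.43e-14). SLC45A3, a prostate transporter gene, rose 1.56-fold (edgeR adjusted p = 2.13e-07), and CANT1, a nucleotidase gene, was the 1 that fell (log2 fold change -0.63, edgeR adjusted p = 2.83e-10). TMPRSS2 moved in the direction of CANT1 at this step. In VCaP-CT-BR against VCaP-CT 3 rose and 6 fell (background 26.1% and 27%), and in VCaP-CT-BR-ER against VCaP-CT-BR 4 rose and 2 fell (21.2% and 21.7%).

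ETS2, the neighbour of ERG, was lowest in both ENZ-resistant sublines. ETS2 measured 19.9, 20.4 and 21.2 CPM in VCaP-T and 24.2, 26.2 and 23.4 CPM in VCaP-CT. It was 11.5, 10.7 and 10.8 CPM in VCaP-CT-ER, 17.7, 18.9 and 18.5 CPM in VCaP-CT-BR and 11.8, 9.87 and 11 CPM in VCaP-CT-BR-ER. The 6 ENZ-resistant libraries lay below the other 9, and VCaP-CT lay above VCaP-T. ETS2 rose 1.20-fold in VCaP-CT against VCaP-T (edgeR adjusted p = 0.00234). It fell 2.23-fold in VCaP-CT-ER against VCaP-CT (adjusted p = 9.62e-12, edgeR), 1.34-fold in VCaP-CT-BR against VCaP-CT (adjusted p = 3.04e-05, edgeR) and 1.68-fold in VCaP-CT-BR-ER against VCaP-CT-BR (adjusted p = 3.89e-08, edgeR). The difference of VCaP-CT-BR from VCaP-T was small, -0.16 on the log2 scale (edgeR adjusted p = 0.0437), and it was lost without VCaP-T replicate 2 or 3, VCaP-CT replicate 1 or VCaP-CT-BR replicate 1 or 3, where p ran from 0.0587 to 0.0941, and with no filter on low counts (0.108).

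ETV4 was scarce and nearly disappeared after any antagonist. Its counts were 50, 42 and 60 in VCaP-T and 48, 74 and 63 in VCaP-CT, or 1.31 ± 0.146 and 1.77 ± 0.329 CPM (SD, n = 3 each). VCaP-CT-ER held 9, 4 and 7 fragments, VCaP-CT-BR held 0, 5 and 3, and VCaP-CT-BR-ER held 10, 2 and 7. All 9 resistant libraries lay below the 6 others, and the 3 resistant sublines overlapped. The VCaP-T and VCaP-CT counts overlapped, whereas in CPM they were narrowly apart, at up to 1.41 in VCaP-T and from 1.45 in VCaP-CT. The log2 difference of 0.43 (SE 0.25) did not pass (edgeR adjusted p = 0.132). ETV4 fell 11.9-fold in VCaP-CT-ER against VCaP-CT (edgeR adjusted p = 1.72e-08), a value resting on 20 fragments in the lower group. It also fell in VCaP-CT-BR against VCaP-CT (edgeR adjusted p = 1.14e-08), where 8 fragments remained in 3 libraries and the size of the fold is uncertain. VCaP-CT-BR-ER held 19 fragments and did not differ detectably from VCaP-CT-BR at this depth (edgeR adjusted p = 0.153).

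ETV1 and ETV5, the other PEA3 genes, were scarce, and ETV1 exceeded 3 fragments only in VCaP-CT-ER. ETV1 counts were 1, 2 and 2 in VCaP-T, 0, 2 and 0 in VCaP-CT and 14, 8 and 11 in VCaP-CT-ER. The bicalutamide line VCaP-CT-BR held 1, 2 and 0 fragments and its ENZ-resistant derivative 3, 1 and 2. Each VCaP-CT-ER library was above each of the 12 others, which held at most 3 fragments. Without a filter on low counts, which brought 38661 genes into the test, ETV1 passed in VCaP-CT-ER against VCaP-CT (edgeR adjusted p = 0.000565) and against VCaP-T (adjusted p = 0.00489, edgeR). ETV5 counts were 1, 2 and 1 in VCaP-T, 2, 7 and 5 in VCaP-CT and 9, 10 and 5 in VCaP-CT-ER. They were 5, 5 and 6 in VCaP-CT-BR and 7, 10 and 6 in VCaP-CT-BR-ER. No ETV5 count exceeded 10, and the sublines after VCaP-T overlapped. In the same unfiltered test ETV5 passed against VCaP-T in VCaP-CT-ER (edgeR adjusted p = 0.00889) and, also by edgeR, in the ENZ-resistant bicalutamide line (adjusted p = 0.00449), with 4 fragments in all of VCaP-T.

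ELF3, an epithelial ETS factor, was high only in VCaP-T among the 5 sublines. ELF3 measured 142, 135 and 135 CPM in VCaP-T, 47.9, 51.5 and 47.6 CPM in VCaP-CT and 58.3, 57.3 and 55.5 CPM in VCaP-CT-ER. It was 40.4, 45.3 and 44.5 CPM in VCaP-CT-BR and 42.8, 44.9 and 43.0 CPM in VCaP-CT-BR-ER. VCaP-CT-ER stood above the other 3 later sublines and VCaP-CT-BR overlapped VCaP-CT-BR-ER. The fall from VCaP-T to VCaP-CT was 2.80-fold (log2 fold change -1.49, SE 0.05, edgeR adjusted p = 9.23e-16). ELF3 then rose 1.16-fold in VCaP-CT-ER (edgeR adjusted p = 0.00134) and fell 1.13-fold in VCaP-CT-BR (adjusted p = 0.0104, edgeR), each against VCaP-CT. The latter call was lost without VCaP-CT replicate 2 (edgeR adjusted p = 0.0964), without VCaP-CT-BR replicate 1 (0.0722) and when only the sublines compared entered the fit (0.0564). The log2 difference of VCaP-CT-BR-ER from VCaP-CT-BR was 0.00 (SE 0.05, edgeR adjusted p = 0.964).

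EHF, the close relative of ELF3, moved in the opposite direction from VCaP-T to VCaP-CT. EHF measured 124, 130 and 128 CPM in VCaP-T, 254, 237 and 259 CPM in VCaP-CT and 138, 133 and 152 CPM in VCaP-CT-ER. It was 232, 214 and 239 CPM in VCaP-CT-BR and 214, 184 and 208 CPM in VCaP-CT-BR-ER. VCaP-T and VCaP-CT-ER were low and the other 3 sublines high, with VCaP-CT-BR overlapping both of its neighbours in level. EHF rose 1.96-fold in VCaP-CT against VCaP-T (edgeR adjusted p = 1.58e-11) and fell 1.77-fold in VCaP-CT-ER against VCaP-CT (adjusted p = 2.57e-10, edgeR). VCaP-CT-BR and VCaP-CT differed by -0.13 on the log2 scale, which did not pass (SE 0.06, edgeR adjusted p = 0.0807) but did without VCaP-CT replicate 2 (0.0495) or with upper quartile scaling (0.0211). The 1.13-fold fall in VCaP-CT-BR-ER against VCaP-CT-BR passed although the libraries overlapped (edgeR adjusted p = 0.0239), and not without VCaP-CT-BR replicate 1 (0.0903) or 3 (0.128) or VCaP-CT-BR-ER replicate 2 (0.21). Against VCaP-T, the log2 difference of VCaP-CT-ER was 0.15 (edgeR adjusted p = 0.0423). That call did not hold without VCaP-T replicate 1, 2 or 3, VCaP-CT-ER replicate 3 or VCaP-CT-BR-ER replicate 3, with p between 0.0514 and 0.225, and DESeq2 did not make it (adjusted p = 0.102).

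**Figure D3:**
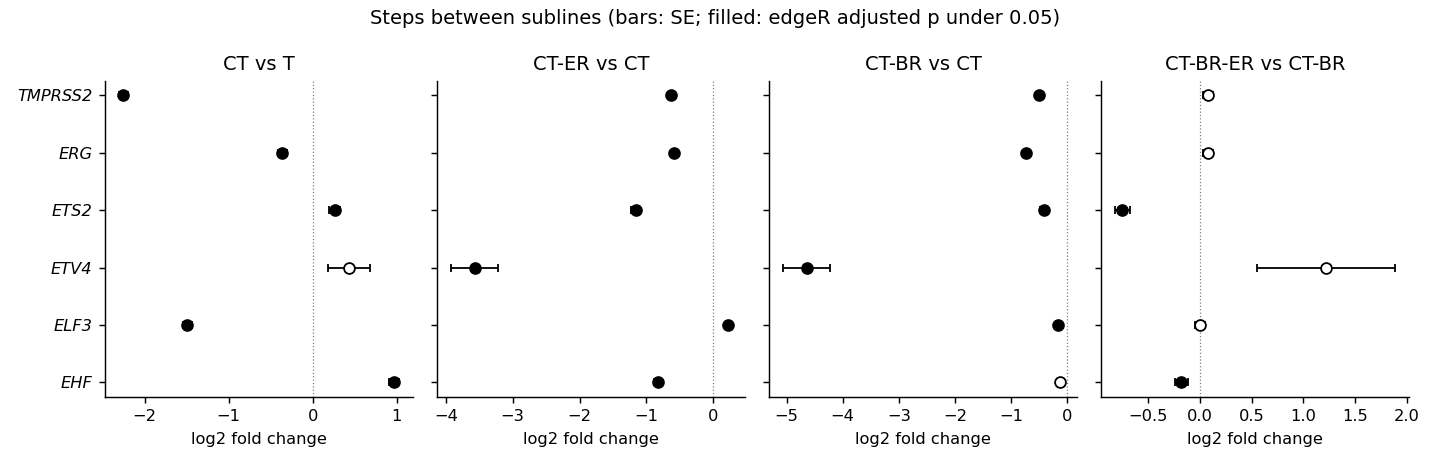
Log2 fold changes of the 6 tested genes at the 4 steps between sublines, with SE; filled circles passed an edgeR adjusted p of 0.05, and the horizontal scale differs between panels. TMPRSS2 at -2.25 and ELF3 at -1.49 led the step to VCaP-CT, and ETS2 and EHF were the genes called in VCaP-CT-BR-ER against VCaP-CT-BR.

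Counted together, 2 of the 6 tested genes rose and 3 fell from VCaP-T to VCaP-CT, where 33.1% of all tested genes were called higher and 32.2% lower. In VCaP-CT-ER against VCaP-CT 1 rose and 5 fell, against 29.6% and 31.2% of all genes. In VCaP-CT-BR against VCaP-CT none rose and 5 fell, against 26.1% and 27% of all genes. These shares of falling genes were above the background, and the genes had been chosen with such results known. In VCaP-CT-BR-ER against VCaP-CT-BR none rose and 2 fell, against 21.2% and 21.7%, which is near the background for so few genes, and 1 fell without VCaP-CT-BR replicate 1 or 3. Without VCaP-CT-BR-ER replicate 2, 1 rose (ERG) and 1 fell (ETS2) at this step. Compared with VCaP-T, which these comparisons share, EHF rose and the other 5 fell in VCaP-CT-ER (background 34.3% higher and 34.7% lower), in VCaP-CT-BR (35.9% and 35.3%) and in VCaP-CT-BR-ER (34.9% and 35.3%).

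The step to ENZ resistance was not the same from the 2 starting lines. TMPRSS2 fell by 0.63 on the log2 scale from VCaP-CT and differed by 0.08 from VCaP-CT-BR, and the difference between these steps was 0.70 (SE 0.07, edgeR adjusted p = 6.41e-08). For ERG the difference was 0.67 (SE 0.06, edgeR adjusted p = 2.54e-08), for EHF 0.65 (SE 0.09, adjusted p = 3.07e-06) and for ETS2 0.41 (SE 0.10, adjusted p = 0.00231). In ELF3 it was -0.22 (SE 0.08, edgeR adjusted p = 0.024), not passing without VCaP-CT-BR replicate 2 (0.0612) or 3 (0.0505). TMPRSS2 and ERG thus fell at the ENZ step only from VCaP-CT, whereas ETS2 fell in both backgrounds, by less after bicalutamide. VCaP-CT started at 137 CPM for TMPRSS2 and 415 CPM for ERG, and VCaP-CT-BR was already lower, at 96.8 and 248 CPM. TMPRSS2 ended at 88.5 CPM in VCaP-CT-ER and 102 CPM in VCaP-CT-BR-ER, and ERG at 276 and 263 CPM. Of the 6 genes, 5 had a positive and 1 a negative difference, against 25.2% and 24.5% of all tested genes. The VCaP-CT-BR label names ENZ as well, so exposure to ENZ before this step cannot be told apart from the effect of bicalutamide.

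Genes lying between ERG and TMPRSS2 on chromosome 21 had a positive median change from VCaP-T to VCaP-CT and negative ones at both steps from VCaP-CT. Of 22 tested genes between ERG and TMPRSS2, ETS2 included, 16 rose and none fell in VCaP-CT against VCaP-T, where ERG and TMPRSS2 fell. The 22 had a median log2 fold change of 0.55, and 33.1% of all tested genes were called higher and 32.2% lower. The 168 tested genes on the rest of the chromosome had a median of 0.58 at that step, with 104 higher and 21 lower. In VCaP-CT-ER against VCaP-CT, 14 of the 22 fell and 1 rose (background 31.2% lower and 29.6% higher). The median of the 22 was -0.72, and ERG stood at -0.59. The medians were -0.65 within 2 Mb beyond TMPRSS2, -0.54 within 2 Mb beyond ERG and -0.41 on the rest of the chromosome. The fall was thus not particular to the interval. Between ERG and TMPRSS2, BACE2, a protease gene, fell 4.58-fold and FAM3B, a secreted factor gene, 4.59-fold at this step (edgeR adjusted p = 1.11e-19 and 5.67e-16). DSCAM, a cell adhesion gene in the same interval, went the other way and rose at each of the 4 steps, from 0.765 CPM in VCaP-T to 24.7 CPM in VCaP-CT-BR-ER. In VCaP-CT-BR against VCaP-CT the 22 genes had a median of -0.65 with 6 higher and 12 lower (background 26.1% and 27%), and the rest of the chromosome -0.06. In VCaP-CT-BR-ER against VCaP-CT-BR the medians were 0.03 and 0.10. DNA copy number was not measured, and the part of gene dosage in the levels of ERG, TMPRSS2 and ETS2 was not tested.

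Within 2 Mb beyond TMPRSS2, 31 genes were tested, of which 15 rose and 10 fell in VCaP-CT against VCaP-T. At that step 33.1% of all tested genes were called higher and 32.2% lower. TFF1, a secreted trefoil peptide gene, fell 7.45-fold and TMPRSS3, another transmembrane serine protease gene, 6.26-fold (edgeR adjusted p = 2.5e-15 and 5.6e-12). TFF3, another trefoil gene, fell 41.1-fold in VCaP-CT-ER and 10.2-fold in VCaP-CT-BR, both against VCaP-CT (edgeR adjusted p = 9.68e-18 and 7.08e-15). In VCaP-CT-ER against VCaP-CT, 2 of the 31 genes rose and 18 fell (background 29.6% higher and 31.2% lower). On the other side, within 2 Mb beyond ERG, 9 of 15 tested genes rose and none fell in VCaP-CT. None rose and 10 fell in VCaP-CT-ER, and the backgrounds were those just given for the same steps. SIM2, a transcription factor gene there, rose 1.75-fold and then fell 2.25-fold (edgeR adjusted p = 2.19e-12 and 6.09e-15). At the bicalutamide step (VCaP-CT-BR against VCaP-CT), 1 rose and 15 fell beyond TMPRSS2 (median log2 fold change -0.32). Beyond ERG, 2 rose and 5 fell (median -0.22). The background was 26.1% higher and 27% lower, and the share of falls beyond ERG was near it.

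**Figure D4:**
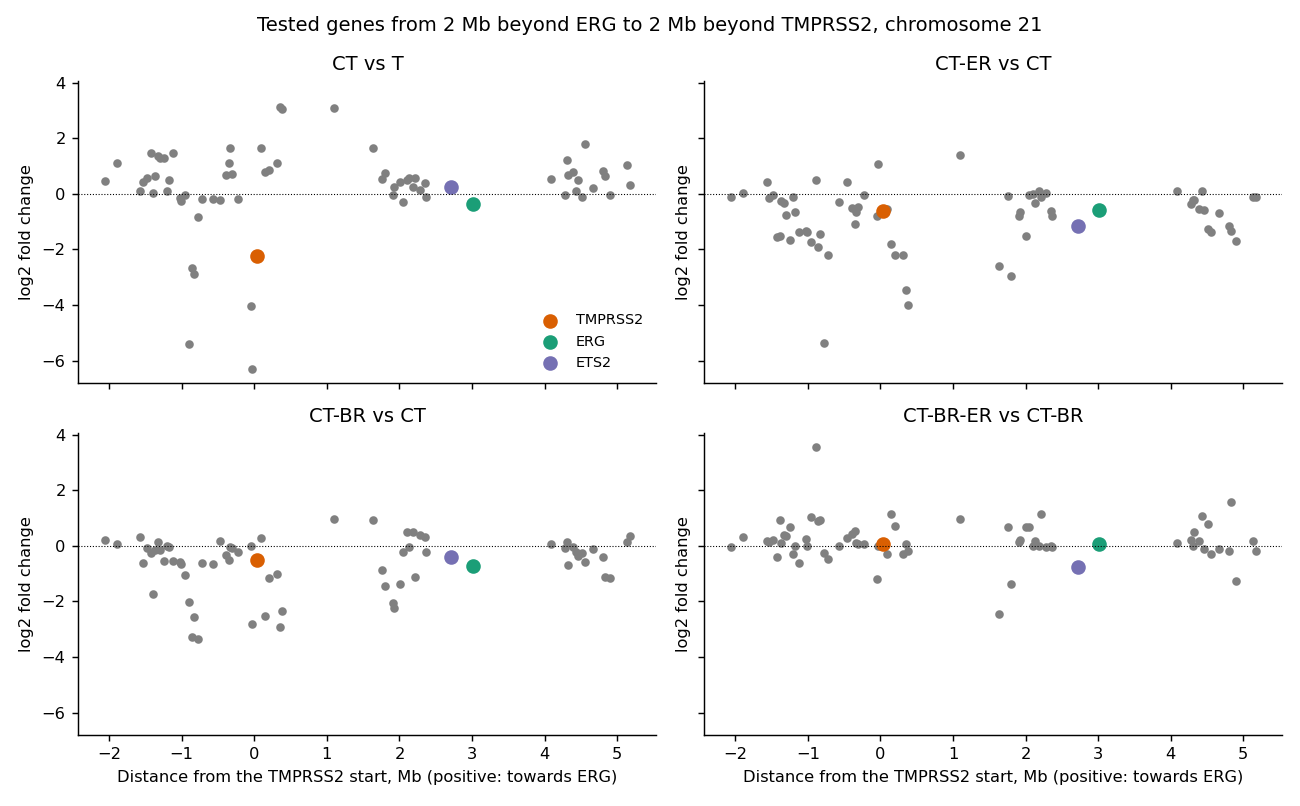
Log2 fold changes of tested genes on chromosome 21 by the distance of their midpoint from the TMPRSS2 start, in Mb, at the 4 steps; grey points are the other genes. In VCaP-CT against VCaP-T the genes between TMPRSS2 and ERG lie mostly above 0 (median 0.55) and both partners below it, and in VCaP-CT-ER against VCaP-CT most lie below 0.

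Among all 28 ETS genes, ERG ranked high but not first in level per length. SPDEF, a luminal prostate ETS factor, led in every subline, with 324 ± 32.5 RPKM in VCaP-T and 163 ± 18.8 RPKM in VCaP-CT-ER (SD, n = 3 each). In VCaP-T, ERG (70.0 RPKM), EHF (29.1 RPKM), ELF3 (19.1 RPKM) and ELK1 (13.9 RPKM) followed without overlap between neighbours. In VCaP-CT, EHF at 57.0 ± 2.69 RPKM and ERG at 54.7 ± 0.104 RPKM overlapped, and ELF3 dropped to rank 7. In VCaP-CT-ER, ERG (36.3 RPKM) was again above EHF (32.2 RPKM). EHF was above ERG in VCaP-CT-BR, at 52.0 against 32.7 RPKM, and likewise in VCaP-CT-BR-ER, at 46.0 against 34.6 RPKM. ERG made up 14% ± 1.09 of the summed RPKM of the ETS genes in VCaP-T and 9.65% to 11.7% in the later sublines. ERG is counted over exons that the fusion transcript lacks, which lowers its level per length by an amount not measured here.

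Of the 21 other ETS genes, 15 were tested, and 7 rose and 5 fell in VCaP-CT against VCaP-T (median log2 fold change 0.39). At that step 33.1% of all tested genes were called higher and 32.2% lower. In VCaP-CT-ER against VCaP-CT 5 rose and 6 fell (background 29.6% and 31.2%), and in VCaP-CT-BR against VCaP-CT 5 and 6 (26.1% and 27%). In VCaP-CT-BR-ER against VCaP-CT-BR 4 rose and 4 fell (21.2% and 21.7%). The counts at these later steps were near the background. ETS1, used mainly by lymphocytes and endothelium, fell 4.77-fold in VCaP-CT-ER and 2.61-fold in VCaP-CT-BR against VCaP-CT (edgeR adjusted p = 1.54e-10 and 1.8e-07). SPDEF fell 2.25-fold and 2.04-fold at the same steps (edgeR adjusted p = 1.39e-08 and 1.73e-07), having shown no detectable change in VCaP-CT against VCaP-T (log2 fold change 0.17, adjusted p = 0.18). ELK1, a MAPK-responsive ETS factor, rose 1.53-fold in VCaP-CT against VCaP-T (edgeR adjusted p = 8.9e-09). From there ELK1 went from 72.2 ± 3.32 CPM to 94.5 ± 2.20 CPM in VCaP-CT-ER (SD, n = 3 each). Against VCaP-T, it was 2-fold higher in VCaP-CT-ER (edgeR adjusted p = 1.89e-12). FLI1, the closest relative of ERG, had 0 to 3 fragments in every library, where 3 fragments are 6.39e-08 to 8.91e-08 of a library.

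**Figure D5:**
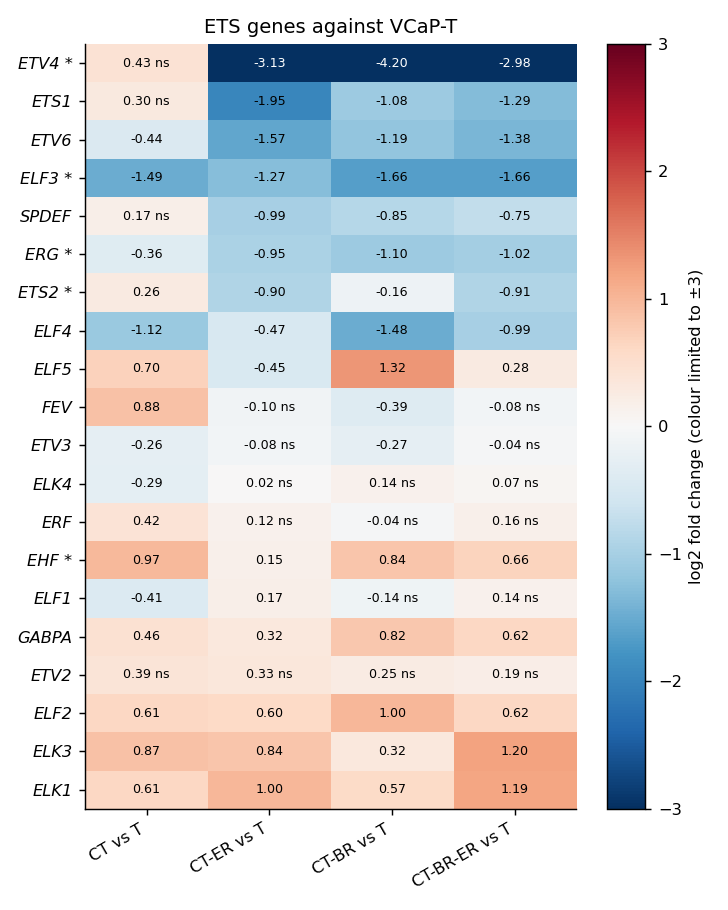
Log2 fold changes against VCaP-T of the ETS genes that passed the filter, ordered by VCaP-CT-ER; an asterisk marks the genes of the named list, ns marks those not passing an edgeR adjusted p of 0.05, and the colour stops at ±3. ETV4, ETS1 and ETV6 were lowest in VCaP-CT-ER and ELK1 rose 2-fold there.

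Genes described as high in ERG-rearranged tumours mostly fell at both antagonist steps from VCaP-CT, but not in VCaP-CT against VCaP-T, where ERG fell too. Of 10 genes in that list 8 were tested, and in VCaP-CT-ER against VCaP-CT 6 fell and 1 rose (median log2 fold change -1.24, against -0.02 over all genes). At that step 31.2% of all tested genes were called lower and 29.6% higher. ARHGDIB went from 80.6 ± 2.23 to 30.4 ± 1.41 CPM, and AMPD3, an AMP deaminase gene, from 29.9 ± 2.15 to 10.2 ± 0.374 CPM (SD, n = 3 each). In VCaP-CT-BR against VCaP-CT 6 fell and 1 rose as well (median -0.68, background 27% lower and 26.1% higher), and ARHGDIB fell 2.81-fold (edgeR adjusted p = 1.01e-13). In VCaP-CT against VCaP-T, where ERG fell 1.28-fold, 5 rose and 2 fell (median 0.28, background 33.1% higher and 32.2% lower). In VCaP-CT-BR-ER against VCaP-CT-BR, where ERG was not called as changed, 2 rose and 3 fell (background 21.2% and 21.7%). PLA1A fell 2.78-fold there (edgeR adjusted p = 1.28e-15), whereas ARHGDIB rose 1.35-fold (adjusted p = 1.24e-05, edgeR). CRISP3, a secreted protein gene, departed from ERG in the bicalutamide line, at 1818 ± 70.5 CPM in VCaP-CT-BR against 1693 ± 170 CPM in VCaP-CT and 678 ± 61.6 CPM in VCaP-CT-BR-ER (SD, n = 3 each). TDRD1, a germline gene, rose at each of the 4 steps, from 80.5 ± 4.91 CPM in VCaP-T to 149 ± 5.63 CPM in VCaP-CT-BR-ER (SD, n = 3 each).

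Markers of luminal epithelium were present in every library, with mean levels between 224 and 371 CPM for EPCAM and between 392 and 709 CPM for HOXB13 in the 5 sublines. Their levels differed between sublines. The keratin genes KRT8 and KRT18 went from 969 ± 67 and 695 ± 44 CPM in VCaP-T to 363 ± 30.2 and 326 ± 3.94 CPM in VCaP-CT, and to 230 ± 7.81 and 254 ± 5.66 CPM in VCaP-CT-BR-ER (SD, n = 3 each). EPCAM, KRT8, KRT18, KLK3 and HOXB13 were each called lower than in VCaP-T in all 3 antagonist-resistant sublines, as ERG and TMPRSS2 were, and their part in those falls was not tested. The summed level of 5 markers of endothelium, a cell type that uses ERG, went from 13.2 to 16.4 CPM in VCaP-T and 8.25 to 9.31 CPM in VCaP-CT to 0.149 to 0.292 CPM in VCaP-CT-ER, 0.991 to 1.57 CPM in VCaP-CT-BR and 0.121 to 0.298 CPM in VCaP-CT-BR-ER. The sum thus differed between VCaP-CT-BR and its ENZ-resistant derivative, where ERG was not called as changed, and its part in the level of ERG was not tested. VWF and PECAM1 carried this sum, at up to 562 and 128 fragments. The receptor gene KDR was at 0 in all libraries, CDH5, the endothelial cadherin gene, at no more than 1 fragment and TEK at no more than 5. Leukocyte markers summed to 0.0544 to 0.994 CPM, with CD3E at 0 and PTPRC at no more than 2 fragments. Of 3 basal markers 1, KRT14, was tested, and the basal sum was 9.58 to 11.1 CPM in VCaP-T and 0.194 to 0.380 CPM in VCaP-CT-BR-ER. Mitochondrial genes took 7.18% to 9.56% of fragments.

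Of 9 genes known to act on ETS transcripts or proteins, 3 rose and 4 fell in VCaP-CT against VCaP-T (background 33.1% higher and 32.2% lower). In VCaP-CT-ER against VCaP-CT 2 rose and 2 fell (background 29.6% and 31.2%). SPOP, an adaptor of the ubiquitin ligase that degrades ERG, was at 108 ± 4.23 CPM in VCaP-T and 63.0 ± 3.07 CPM in VCaP-CT (SD, n = 3 each), a 1.72-fold fall (edgeR adjusted p = 1.34e-10), and did not pass at the 3 later steps. CIC, a repressor of the PEA3 genes, was at 57.9 to 68.2 CPM on average in the 5 sublines and passed at none of the 4 steps, with an edgeR adjusted p of 0.159 or more. ATXN1, a partner of CIC, fell 2.49-fold in VCaP-CT-ER and 1.58-fold in VCaP-CT-BR against VCaP-CT (edgeR adjusted p = 1.73e-12 and 1.44e-07).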

How the data were processed

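RNA-seq of 15 libraries, 3 per VCaP subline, was analysed from the deposited counts. The authors made these with STAR 2.5.4b (GRCh38) and featureCounts 1.6.2 (GENCODE 28), as paired fragments per gene over exons. The file headers held no strand setting, so that fragments of overlapping genes on opposite strands could not be told apart by strand. Gene identifiers were matched to symbols for 57754 of 58381 genes (98.9%). Counts were tested with edgeR 4.0.16 (R 4.3.3): filterByExpr with a minimum count of 10, TMM scaling, 1 term per subline, quasi-likelihood F tests, with p-values adjusted by Benjamini-Hochberg over 19621 genes with a threshold of 0.05. The study's methods give no such test for these counts. The SE is the absolute log2 fold change over the square root of F. CPM used TMM-scaled library sizes over the tested genes, and RPKM also the exon length in the files. The ERG to TMPRSS2 ratio was tested by exact permutation on counts plus 1. The fit was tested on simulated data.

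The members and gene lists were chosen with earlier results of these data known. Named were all members, and from each list, per comparison, up to 3 called genes with the largest change and a mean log2 CPM of at least 1, plus KLK3, FKBP5, SPDEF, FLI1, ETS1, SPOP, CIC and DUSP6, with 1 gene of this rule and its list not reported here. The other genes given values (CANT1, DSCAM at all steps, TDRD1 and single markers) were chosen after their values were seen. Alternatives were DESeq2 1.42.0, RLE and upper quartile scaling, other filters, fits to the compared sublines only, a replicate block and leaving out each library. Promoter windows came from RefSeq. The floor of 3 fragments covers counting error only.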

Additional observations from a re-analysis of the deposited data

Results flagged for a closer look

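The ENZ step that followed bicalutamide (VCaP-CT-BR-ER against VCaP-CT-BR) differed from the ENZ step that started at VCaP-CT in all 6 tested genes, by the interaction contrast of the edgeR fit with adjustment over all genes. On the log2 scale the difference was 0.70 for TMPRSS2 (-0.63 from VCaP-CT and 0.08 from VCaP-CT-BR), 0.67 for ERG (-0.59 and 0.08), 0.65 for EHF (-0.82 and -0.18) and 0.41 for ETS2 (-1.16 and -0.75). ELF3 differed by -0.22 (0.22 and 0.00). ETV4 differed by 4.79 (SE 0.78, edgeR adjusted p = 3.13e-05), a value that rests on 20, 8 and 19 fragments in the 3 antagonist-resistant sublines, of which VCaP-CT-BR had none in 1 library. ETV4 ended at 20 and 19 fragments after the ENZ steps, having started at 185 fragments in VCaP-CT, and at 8 in the bicalutamide line. All these contrasts use 1 derivation per subline.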

How the results depend on the processing

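Of 1047 values for single members under alternative settings, 1015 kept their direction and side of the threshold, 23 lost a call, 4 gained one and 5 changed sign. All 5 sign changes were ELF3 in VCaP-CT-BR-ER against VCaP-CT-BR, which was 0.00 on the log2 scale and became -0.00 with only the compared sublines, -0.00 without VCaP-CT replicate 1 or 2, -0.03 without VCaP-CT-BR replicate 1 and -0.01 without VCaP-CT-BR-ER replicate 2, in a range of -0.03 to 0.04 over single libraries left out. The members called in that comparison ranged from 1 to 2 when single libraries were left out. The excess of the ERG to TMPRSS2 ratio in the 9 antagonist-resistant libraries ranged from 0.60 to 0.99 without single libraries, and with a replicate block, which allows 1000 splits, it was 0.80 with an exact permutation p of 0.059. The replicate numbers did not pair the libraries on average. Deviations from the subline mean had a mean correlation of -0.00754 between libraries with the same number, from -0.525 to 0.526, and 11 of 30 pairs exceeded 0.1. The mean for different numbers, 0.00371, follows from taking deviations from the subline mean and is no separate evidence. With the block, ETS2 in VCaP-CT-BR against VCaP-T no longer passed (edgeR adjusted p = 0.0542) and EHF in VCaP-CT-BR against VCaP-CT did (0.0381). EHF in VCaP-CT-ER against VCaP-T was also lost with RLE scaling (0.0623) and under a filter of 10 counts in each library (0.0674). The cause of these changes was not tested. Depth limited ETV1, ETV4 and ETV5.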

Other observations

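Of 10 tested genes for membrane serine proteases, the family of TMPRSS2, and their inhibitors, 2 rose and 6 fell in VCaP-CT against VCaP-T, where 33.1% of all tested genes were called higher and 32.2% lower. At the ENZ step from VCaP-CT 1 rose and 6 fell (background 29.6% and 31.2%), and in VCaP-CT-BR against VCaP-CT 0 rose and 8 fell (background 26.1% and 27%). TMPRSS4 was the 1 that rose in VCaP-CT-ER, from 3.00 ± 0.298 CPM in VCaP-CT to 17.3 ± 1.20 CPM (SD, n = 3 each), whereas TMPRSS2 fell there. HPN, which encodes hepsin, fell 2-fold in VCaP-CT-BR against VCaP-CT (edgeR adjusted p = 7.19e-08). In VCaP-CT-BR-ER against VCaP-CT-BR 3 rose and 1 fell (background 21.2% and 21.7%).

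Among 14 genes of MAPK-ERK output, 5 rose and 4 fell in VCaP-CT-ER against VCaP-CT, near the background of 29.6% higher and 31.2% lower, and 2 rose and 8 fell in VCaP-CT-BR against VCaP-CT, where the background was 26.1% and 27%. The immediate early genes FOS and EGR1 rose 8.54-fold and 7.48-fold in VCaP-CT-ER and fell 20.8-fold and 5.61-fold in VCaP-CT-BR, both against VCaP-CT (edgeR adjusted p between 9.24e-14 and 2.23e-10). FOS spread widely in VCaP-CT-ER, at 155 ± 50.4 CPM. DUSP6, a feedback phosphatase gene of ERK signaling, stayed at 0.370 to 0.581 CPM on average and passed at none of the 4 steps. ETS2 and ETV4 fell in VCaP-CT-ER, where FOS and EGR1 rose, and in VCaP-CT-BR, where FOS and EGR1 fell as well. In VCaP-CT-BR-ER against VCaP-CT-BR, FOS and EGR1 rose 48.3-fold and 8.88-fold (edgeR adjusted p = 1.55e-12 and 1.14e-12). At that step ETS2 fell and ETV4 did not pass. The part of MAPK signaling in the levels of ETS2 and ETV4 was not tested.

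The tested genes with the pattern most like TMPRSS2 over the 15 libraries were SPTBN1, PLEKHO2 and NFE2L1 (Pearson r of log2 CPM 0.997, 0.996 and 0.994), and those most like ERG were IKZF1, SOX4 and CPNE4 (0.996, 0.992 and 0.991). For ELF3 they were PCK2, VPS26B and PIGO (0.994, 0.993 and 0.992). These values describe 5 sublines more than 15 libraries and were the highest of 13052 genes.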
